A study of Oryctolagus cuniculus with 9 samples.

Results

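The expression of 9 collagen genes was examined in rabbit knee cartilage: the type VI chains COL6A1 and COL6A2, the fibril-associated collagens COL12A1, COL16A1 and COL22A1, the transmembrane collagens COL13A1 and COL23A1, the anchoring fibril collagen COL7A1 and the minor fibrillar collagen COL24A1. They were taken by gene symbol, and all 9 were found once among the 14870 genes of the deposited tables, which hold 36 collagen genes with a symbol. New Zealand rabbits aged 4 to 5 months were given a full-thickness defect of the trochlear groove in both knees, and 3 libraries were made in each of 3 groups. In the CLCS treated group the defect was filled with a collagen-chondroitin sulphate scaffold of 5 mm diameter and 1 mm height, in the untreated group it was left empty, and the healthy group was cartilage without a defect. Tissue was taken 12 weeks after surgery and sequenced as polyA RNA. According to the study's methods, right knees received the scaffold and left knees were the untreated ones. Healthy tissue came from the condyle in the scheme of the study, so that site and injury cannot be told apart. The labels do not say which rabbit each library came from, so the spread between libraries of a group may be partly technical.

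Collagens are built from 3 chains wound around each other, and most of the collagen of articular cartilage is the fibrillar type II. Type VI collagen forms beaded microfilaments and is concentrated in the pericellular matrix that surrounds each chondrocyte. Fibril-associated collagens with interrupted triple helices (FACITs) do not form fibrils themselves but sit on the surface of fibrils and link them to other matrix molecules. Transmembrane collagens span the cell membrane with their collagenous part outside the cell, and anchoring fibrils fasten the basement membrane of skin to the tissue beneath it.

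Values are given in normalized reads, the deposited unit, which are whole reads of a gene divided by the size factor of the library. Between 724986 and 1226408 reads per library were recovered from the deposited gene table, which is the total the table holds and not the sequencing depth, since the study lists far more aligned read pairs for each library. The 9 genes together had between 455 and 2787 of the recovered reads, so that several members rest on few reads per library. Log2 fold changes were computed after adding 1 to the normalized reads, which understates the change of genes with few reads. Reads were not corrected for gene length, and levels are therefore compared between groups and not between genes. COL2A1 (505 to 20508 reads) and ACAN (110 to 609 reads), which define cartilage, were read in all 9 libraries. The cartilage gene SOX9 was low, with 4 to 41 reads (35, 41 and 4 in healthy replicates 1, 2 and 3). MATN1, also on the list of cartilage genes, had 0 to 2 reads. Untreated replicate 3 stood apart from the others, with 505 COL2A1 reads against 4061 to 20508 elsewhere, and its effect on the members is given beside their results. The share of a single unnamed gene, ENSOCUG00000023467, in the total ranged from 1.49% to 49.4%, and 86.0% to 94.4% of the reads on 13 mitochondrial protein genes lay on ND6, the one encoded on the other strand. The part of either in the values below was not tested. In bulk tissue, a change in the number of cells that use a gene and a change in its RNA per cell cannot be told apart.

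Of the 9 genes, COL22A1 rose in the defects. It was higher in CLCS treated than in healthy cartilage by 6.14-fold, and higher in the 6 defect libraries as a whole by 4.73-fold. In untreated defects alone its 3.64-fold higher level did not pass the test by limma but was called by DESeq2. The paper, which used DESeq2 on the same libraries, reports COL22A1 as significantly raised in both defect groups. Between the defect groups it was not called. None of the other 8 genes passed the test in any comparison. Among them COL6A2, COL12A1, COL13A1 and COL24A1 had mean levels above healthy cartilage in both defect groups, and COL7A1 and COL23A1 below it. Both type VI chains and COL16A1 varied more between libraries of a group than between groups. The plot of the 9 genes by library shows every value behind these statements.

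In untreated against healthy cartilage, 0 of 9 members were called by limma (adjusted p under 0.05), where 2.55% of 3496 tested genes were called. One member had an unadjusted p under 0.05, against 16.6% of the tested genes, edgeR called 0 and DESeq2 called 1 (COL22A1). The groups did not overlap for 1 member, against 22.0% of the tested genes. In CLCS treated against healthy cartilage, 1 of 8 was called, where 3.16% of 3294 tested genes were called. An unadjusted p under 0.05 was found for 3 members, against 17.5% of the tested genes, and the groups did not overlap for 3 members (COL22A1 and COL13A1 higher, COL23A1 lower), against 24.2%. In both defect groups against healthy cartilage, 1 of 9 was called, where 6.58% of 3812 tested genes were called. There, 4 members had an unadjusted p under 0.05, against 21.0%, and 1 did not overlap, against 13.5%. In CLCS treated against untreated defects limma called 0 of 8 members and 0% of 3275 tested genes, with an unadjusted p under 0.05 for 0 members and for 2.90% of the genes, and edgeR and DESeq2 called 0 genes each. All 8 members overlapped there, while 8.34% of the tested genes did not.

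**Figure D1:**
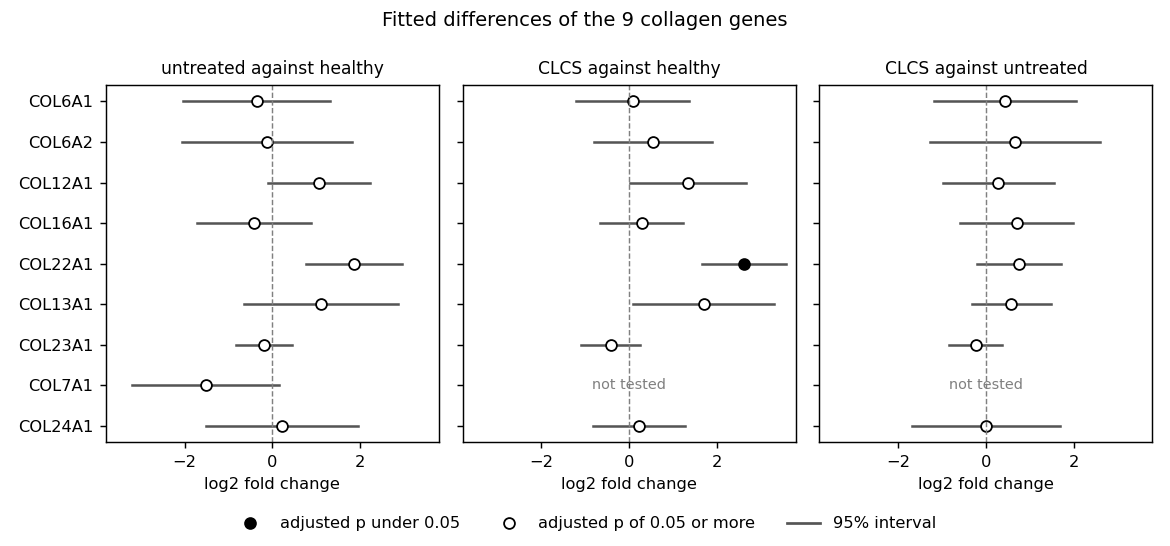
Log2 fold change of the 9 collagen genes (horizontal axes) in untreated against healthy, CLCS treated against healthy and CLCS treated against untreated cartilage, 3 libraries per group. Circles are the fitted differences from limma, filled where the adjusted p is under 0.05, and lines are 95% intervals. Only COL22A1 in CLCS treated against healthy cartilage is filled, at 2.62, and COL7A1 had too few reads for the test in both comparisons of CLCS treated cartilage.

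**Figure D2:**
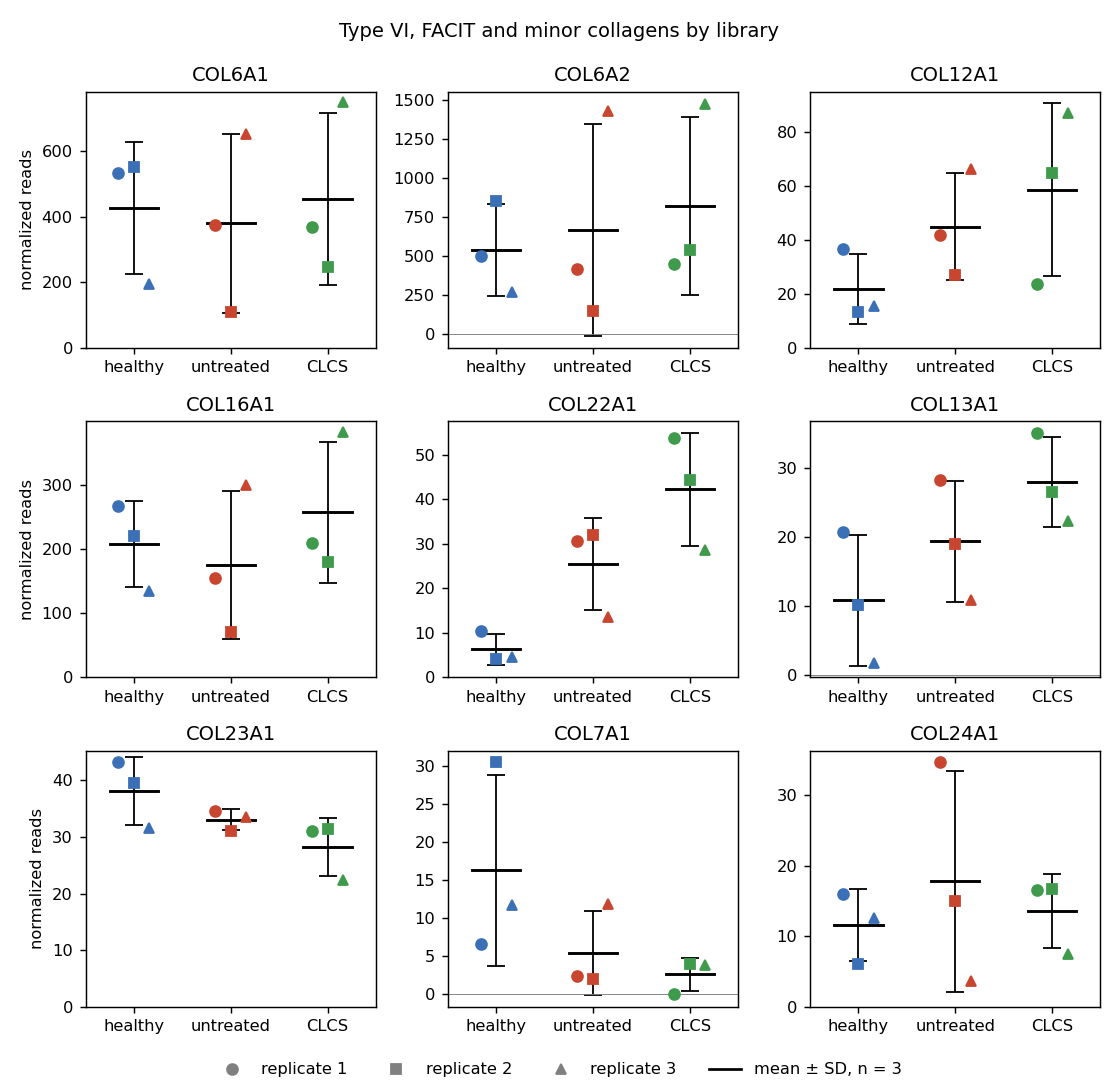
Normalized reads of the 9 collagen genes (vertical axes, linear, a separate scale per gene) in the healthy, untreated and CLCS treated libraries. Each symbol is 1 library, with circles, squares and triangles for replicates 1, 2 and 3, and the line and whiskers are the mean ± SD of 3 libraries. COL22A1 lies between 4.06 and 10.4 in healthy libraries and between 13.6 and 53.7 in defect libraries, while for COL6A1, COL6A2 and COL16A1 the lowest library of all is untreated replicate 2 and the highest is CLCS replicate 3.

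COL22A1 (ENSOCUG00000008699) encodes a FACIT known from tissue junctions, among them the myotendinous junction and the border between articular cartilage and synovial fluid. Healthy replicates 1, 2 and 3 had 10.4, 4.06 and 4.52 normalized reads, from 11, 4 and 5 reads. The untreated replicates had 30.7, 32.0 and 13.6 normalized reads, from 39, 32 and 15 reads. The CLCS replicates had 53.7, 44.3 and 28.6 normalized reads, from 52, 45 and 23 reads. All 6 defect libraries lay above the highest healthy library, and in both defect groups replicate 3 was the lowest. Between the defect groups the values overlapped, since CLCS replicate 3 lay below untreated replicates 1 and 2. The group means were 6.31 ± 3.52 in healthy, 25.4 ± 10.3 in untreated and 42.2 ± 12.7 in CLCS treated cartilage (SD, n = 3 each).

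The log2 fold change of COL22A1 in CLCS treated against healthy cartilage was 2.62 (SE 0.41, adjusted p = 0.0248 from limma), which is 6.14-fold. In untreated against healthy cartilage it was 1.86 (SE 0.47, adjusted p = 0.0916 from limma), which did not pass the threshold of 0.05 although the groups do not overlap. DESeq2 on the recovered reads put this difference past the threshold, with an adjusted p of 0.0306. Both comparisons share the 3 healthy libraries. The difference between CLCS treated and untreated defects was 0.75 (95% interval -0.21 to 1.72, adjusted p = 0.996 from limma) and was not called. With the replicate number as a block the interval was narrower and lay above 0 (0.13 to 1.38), and the difference was again not called (adjusted p = 0.884 from limma). Without untreated replicate 3 it was 0.37. In the 3 pairs of equal replicate number the CLCS library was the higher one, by 0.79, 0.46 and 1.02 on the log2 scale. With both defect groups against healthy cartilage the log2 fold change was 2.24 (SE 0.39, adjusted p = 0.0121 from limma), or 4.73-fold.

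The call of COL22A1 rested on single libraries to different degrees. For both defect groups against healthy cartilage it was kept in 8 of 9 fits that left out 1 library, with log2 fold changes of 2.03 to 2.61, and was lost without healthy replicate 3 (2.09, adjusted p = 0.0618 from limma). Without untreated replicate 3, the library low in COL2A1, the log2 fold change was 2.43 (adjusted p = 0.00885 from limma). For CLCS treated against healthy cartilage it was kept in 2 of 6 such fits, with log2 fold changes of 2.40 to 2.99, and lost without healthy replicate 3 or any single CLCS library, with adjusted p-values of 0.0531 to 0.119 from limma. It was also lost when all 13856 genes were tested without a filter on low values (adjusted p = 0.0852 from limma).

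Some bone genes rose together with COL22A1. Of 11 bone markers in the tables, 6 had enough reads for the test. With both defect groups together against healthy cartilage, 2 of these rose. They were IBSP (bone sialoprotein, log2 fold change 2.35, SE 0.48, adjusted p = 0.0228 from limma) and BGLAP (osteocalcin, log2 fold change 1.70, SE 0.37, adjusted p = 0.0298 from limma). In untreated against healthy cartilage alone, limma and edgeR called 0 and DESeq2 called 1. In CLCS treated against healthy cartilage limma called 1 (IBSP), edgeR called 1 and DESeq2 called 2. The summed level of the 11 markers was 389 to 1036 normalized reads in healthy tissue, 1034 to 3038 in untreated and 1986 to 2546 in CLCS treated libraries. The osteoblast regulator SP7 had 0 to 3 reads and the osteocyte gene SOST 0 to 1 read per library. Of 5 genes of tendon and the myotendinous junction, 3 were tested against healthy cartilage, and 0 were called by limma or edgeR in both defect groups together, where 2 had an unadjusted p under 0.05 and DESeq2 called 1. Their summed levels were 76.1 to 214 normalized reads in healthy tissue, 45.0 to 89.0 in untreated and 89.5 to 187 in CLCS treated libraries. The part of either group of cells in the level of COL22A1 was not tested. Of 11 skeletal muscle markers in the tables, 1 was tested in both defect groups against healthy cartilage, with 0 called by limma, edgeR or DESeq2 and 0 at an unadjusted p under 0.05. Their summed level was 29.2 to 58.7 normalized reads in healthy tissue, 23.0 to 29.1 in untreated and 24.6 to 37.4 in CLCS treated libraries. Among them skeletal muscle actin, ACTA1, had 0 to 1 read per library and the myosin light chain MYLPF 6 to 18. The part of muscle in the values was not tested.

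COL12A1 (ENSOCUG00000015320) encodes a FACIT that sits on type I collagen fibrils in tendon, ligament and other dense connective tissue. Its values were 36.7, 13.2 and 15.4 normalized reads in healthy tissue, 41.8, 27.0 and 66.2 in untreated and 23.8, 64.9 and 87.2 in CLCS treated replicates 1, 2 and 3. Of the 6 defect libraries, 4 lay above the highest healthy library, while CLCS replicate 1 and untreated replicate 2 lay within the healthy range. The means were 21.8 ± 13.0 in healthy, 45.0 ± 19.8 in untreated and 58.6 ± 32.2 in CLCS treated cartilage (SD, n = 3 each). The log2 fold changes against healthy cartilage were 1.07 in untreated (SE 0.49, adjusted p = 0.347 from limma) and 1.35 in CLCS treated defects (SE 0.57, adjusted p = 0.279 from limma), neither past the threshold. Between CLCS treated and untreated defects the difference was 0.28 (95% interval -0.98 to 1.54), with 2 of 3 CLCS libraries above the untreated library of the same number. Without untreated replicate 3 the untreated difference from healthy cartilage was 0.75 and that between the defect groups 0.60.

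COL16A1 (ENSOCUG00000005747) encodes a FACIT-like collagen found near thin fibrils in cartilage and other tissues. Healthy replicates 1, 2 and 3 had 267, 219 and 135 normalized reads, the untreated replicates 155, 71.0 and 299, and the CLCS replicates 209, 179 and 382. The healthy range lay inside the range of the defect libraries. Its log2 fold change was -0.41 in untreated against healthy cartilage (SE 0.55, adjusted p = 0.802 from limma), 0.29 in CLCS treated against healthy cartilage (SE 0.40, adjusted p = 0.767 from limma) and 0.70 in CLCS treated against untreated defects (95% interval -0.59 to 1.99, adjusted p = 0.996 from limma). In all 3 pairs of equal replicate number the CLCS library had the higher value, by 0.43, 1.32 and 0.35 on the log2 scale. The sign of the untreated difference rested on 1 library, since the leave-one-out range ran from -0.91 to 0.12 and the value above 0 came without untreated replicate 2. Without untreated replicate 3 the untreated difference was -0.91 and that between the defect groups 1.20.

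COL6A1 (ENSOCUG00000025192) and COL6A2 (ENSOCUG00000000409) encode the alpha 1 and alpha 2 chains of type VI collagen, which join with a further chain before they leave the cell. That further chain was not analysed here. COL6A1 had 534, 552 and 194 normalized reads in healthy replicates 1, 2 and 3, 376, 110.0 and 654 in the untreated replicates and 368, 247 and 749.5 in the CLCS replicates. The lowest and the highest value of all 9 libraries both came from defects. COL6A2 had 500.3, 856 and 270.1 normalized reads in healthy tissue, 418, 148 and 1434 in untreated and 450.5, 538 and 1479 in CLCS treated replicates. Replicate 3 was thus the highest of both defect groups and the lowest of the healthy group for both chains.

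No difference between groups was detected for either chain. COL6A1 averaged 427 ± 202 normalized reads in healthy tissue, 380 ± 272 in untreated and 455 ± 262 in CLCS treated cartilage, and COL6A2 averaged 542 ± 295, 667 ± 678 and 823 ± 570.2 (SD, n = 3 each). The log2 fold changes of COL6A1 were -0.36 in untreated (95% interval -2.04 to 1.32) and 0.08 in CLCS treated (95% interval -1.20 to 1.37) against healthy cartilage, and 0.44 between CLCS treated and untreated defects (95% interval -1.18 to 2.06). Those of COL6A2 were -0.13 (95% interval -2.06 to 1.81), 0.54 (95% interval -0.80 to 1.89) and 0.67 (95% interval -1.27 to 2.61). The adjusted p-values from limma of these 6 differences were between 0.686 and 0.996. With the replicate block the intervals between the defect groups were narrower, at -0.36 to 1.25 for COL6A1 and -0.42 to 1.76 for COL6A2. The intervals without the block leave room for a change of more than 1 on the log2 scale in either direction in 5 of these 6 comparisons, and for COL6A2 in CLCS treated against healthy cartilage for a rise of that size but not for a fall.

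Single libraries turned the sign of most of the type VI differences. COL6A2 in CLCS treated against healthy cartilage was an exception, with values above 0 (0.0151 to 0.95) whichever library was left out. For untreated against healthy cartilage, COL6A1 ran from -0.92 to 0.36 and COL6A2 from -0.97 to 0.67 when 1 library was left out, with the lowest values without untreated replicate 3 and the highest without untreated replicate 2. Between the defect groups, COL6A1 differed by 1.0 and COL6A2 by 1.51 without untreated replicate 3. For COL6A2 the sign of the untreated difference also turned under edgeR (0.33) and DESeq2 (0.30). The ratio of COL6A2 to COL6A1 reads, without length correction, was 0.937, 1.55 and 1.39 in healthy, 1.11, 1.35 and 2.19 in untreated and 1.22, 2.18 and 1.97 in CLCS treated replicates. The 3 ratios near 2 all came from defects, and the groups overlapped.

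**Figure D3:**
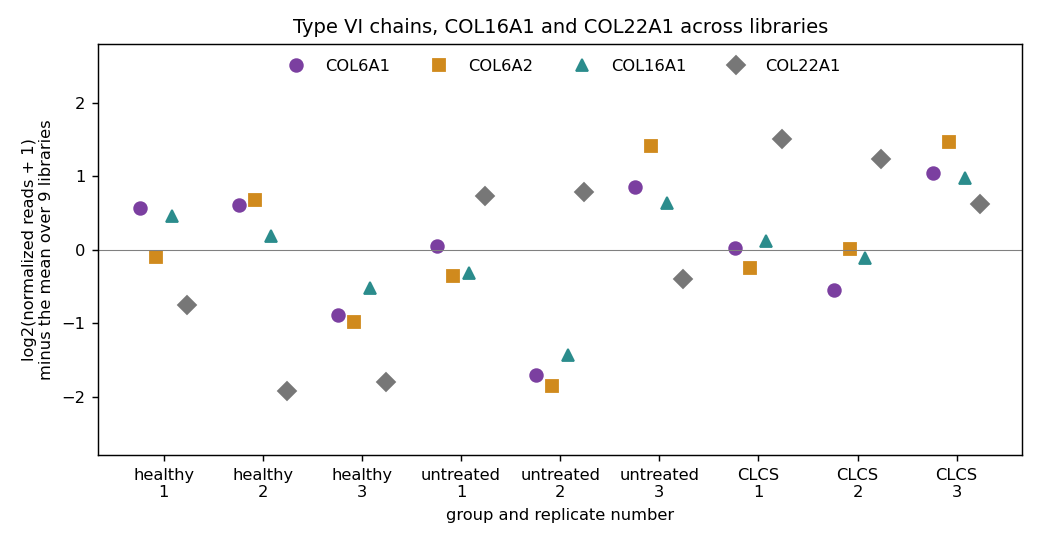
Deviation of COL6A1, COL6A2, COL16A1 and COL22A1 from their own mean over the 9 libraries (vertical axis, log2 of normalized reads plus 1) in each library (horizontal axis, group and replicate number, in no order of time or dose). The type VI chains and COL16A1 lie close together in most libraries, lowest in untreated replicate 2 and highest in CLCS replicate 3, whereas COL22A1 lies below its mean in the 3 healthy libraries and above it in 5 of the 6 defect libraries.

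The type VI chains and COL16A1 varied together across libraries, which the plot of deviations by library shows. Over the 9 libraries, the gene most like COL6A1 among 3117 genes with a symbol was COL16A1 (Pearson r = 0.951 of log2 values), followed by HDGF (0.925) and ATIC (0.925). The genes most like COL6A2 were DIS3L (0.938), COL16A1 (0.925) and RABAC1 (0.919), and COL6A1 followed it at 0.917. TIAM2 (0.962), COL6A1 (0.951) and HDGF (0.928) were most like COL16A1. These correlations describe 9 libraries that share their scaling and their groups, and were not tested. HDGF, ATIC and RABAC1 reached at most 32.5, 14.5 and 14.2 normalized reads in any library, so that counting error is part of their values.

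The same measure gave other genes for the remaining members. ETNK2 (0.960), the bone gene IBSP (0.957) and CLTB (0.949) were most like COL22A1. The matrix metalloproteinase MMP9 (0.916), the cyclooxygenase PTGS1 (0.910) and MRTO4 (0.906) were most like COL13A1. For COL12A1 they were IQGAP1 (0.933), HSPA4 (0.913) and KCNG4 (0.897), each with at most 13.8 normalized reads in a library. For COL23A1 they were BLVRA (0.912), GIGYF2 (0.893) and IRF2 (0.886). ATP6V1C1 (0.944), GTPBP8 (0.930) and TPM2 (0.921) were most like COL7A1, and SIRT5 (0.924), PANK2 (0.902) and WIF1 (0.885) most like COL24A1. Among the members themselves, COL22A1 went with COL13A1 (0.815) and opposite to COL7A1 (-0.887).

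COL13A1 (ENSOCUG00000011655) encodes a transmembrane collagen of cell adhesion sites, known best from the neuromuscular junction. Healthy replicates 1, 2 and 3 had 20.7, 10.1 and 1.81 normalized reads, from 22, 10 and 2 reads. The untreated replicates had 28.4, 19.0 and 10.9, and the CLCS replicates 35.1, 26.6 and 22.4. All 3 CLCS libraries lay above the highest healthy library, whereas 2 of the 3 untreated libraries lay inside the healthy range. The means were 10.9 ± 9.48 in healthy, 19.4 ± 8.75 in untreated and 28.0 ± 6.49 in CLCS treated cartilage (SD, n = 3 each), and neighbours in this order differed by less than the larger SD of the pair. The log2 fold change against healthy cartilage was 1.12 in untreated (SE 0.75, adjusted p = 0.544 from limma) and 1.70 in CLCS treated defects (SE 0.69, adjusted p = 0.265 from limma), neither past the threshold. Within each replicate number the order was healthy, untreated, CLCS in all 3 cases. Equal numbers were not found to pair untreated with healthy libraries, and the share of all tested genes with such an order was not computed. Without healthy replicate 3, which had 2 reads, the difference of CLCS treated cartilage was 0.88, that of untreated cartilage 0.30 and that of both defect groups 0.59, against 1.41 with it. Without untreated replicate 3 the difference between the defect groups was 0.24, against 0.58 with it.

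COL23A1 (ENSOCUG00000003217) encodes another transmembrane collagen, whose outer part can be shed from the cell. Its values had the smallest spread of the 9 genes in the untreated group, with 43.3, 39.6 and 31.6 normalized reads in healthy tissue, 34.7, 31.0 and 33.5 in untreated and 31.0, 31.5 and 22.4 in CLCS treated replicates. All 3 CLCS libraries lay below the lowest healthy library, replicates 1 and 2 by less than 1 normalized read. The log2 fold change was -0.42 in CLCS treated against healthy cartilage (SE 0.29, 95% interval -1.09 to 0.24, adjusted p = 0.499 from limma) and -0.19 in untreated against healthy cartilage (SE 0.27, 95% interval -0.83 to 0.45, adjusted p = 0.815 from limma). A rise of 1 on the log2 scale lies outside both intervals.

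COL7A1 (ENSOCUG00000012349) encodes the collagen of the anchoring fibrils of skin and mucosa. Healthy replicates 1, 2 and 3 had 7, 30 and 13 reads, the untreated replicates 3, 2 and 13 reads and the CLCS replicates 0, 4 and 3 reads, where a count of 0 allows up to 3 reads by counting error alone. In normalized reads these were 6.60, 30.4 and 11.7 in healthy, 2.36, 2.0 and 11.8 in untreated and 0, 3.94 and 3.74 in CLCS treated cartilage. Of the 6 defect libraries, 5 lay below the lowest healthy library, and untreated replicate 3 lay inside the healthy range. The log2 fold change in untreated against healthy cartilage was -1.52 (SE 0.71, adjusted p = 0.351 from limma). In CLCS treated against healthy and against untreated cartilage COL7A1 had too few reads for the test of 6 libraries, and in the fit of all 9 libraries its difference between CLCS treated and healthy cartilage was -2.34 (SE 0.80, adjusted p = 0.182 from limma). For both defect groups the log2 fold change was -1.93 (SE 0.70, adjusted p = 0.144 from limma), and without untreated replicate 3 it was -2.27 (adjusted p = 0.0798 from limma). Of 9 epithelial markers in the tables, 3 were tested, and 0 were called by limma, edgeR or DESeq2 and 0 had an unadjusted p under 0.05 in either defect group against healthy cartilage. Their summed level was 73.5 to 205 normalized reads in healthy tissue, 95.3 to 104 in untreated and 80.6 to 114 in CLCS treated libraries, and the keratin KRT5 had 0 to 1 read per library.

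COL24A1 (ENSOCUG00000003917) encodes a minor fibrillar collagen known from developing bone and cornea. It had 16.02, 6.09 and 12.6 normalized reads in healthy tissue, 34.7, 15.0 and 3.63 in untreated and 16.5, 16.7 and 7.47 in CLCS treated replicates. Both the highest and the lowest library were untreated. The log2 fold changes were 0.23 in untreated (95% interval -1.51 to 1.96) and 0.23 in CLCS treated (95% interval -0.82 to 1.27) against healthy cartilage, with adjusted p-values from limma of 0.936 and 0.845. Between CLCS treated and untreated defects the difference was -0.00 (95% interval -1.68 to 1.68), and its sign was not stable when a library was left out (-0.79 to 0.68). Without untreated replicate 3, the lowest library, the untreated difference from healthy cartilage was 1.02 and that between the defect groups -0.79.

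The median log2 fold change of the members tested was -0.13 in untreated and 0.41 in CLCS treated against healthy cartilage, beside -0.02 and -0.08 over all tested genes. Over the other collagens tested it was -0.06 and 0.53 in these comparisons. In CLCS treated against untreated defects the median of the members was 0.51, beside -0.00 over all tested genes. It was 0.34 over the other collagens and 0.89 over the cartilage markers there. In that comparison 6 of 8 members had a fitted difference above 0, as had 13 of 19 other collagens and 9 of 9 cartilage markers. The share of all tested genes above 0 was not computed. The summed level of the cartilage markers, which include COL2A1, was 10165, 5262 and 841 normalized reads in untreated replicates 1, 2 and 3. It was 10171, 11023 and 28284 in the CLCS replicates. The medians and counts without untreated replicate 3 were not computed. COL6A2, COL16A1, COL22A1 and COL13A1 were higher in the CLCS library of every pair of equal number. For COL6A2 the differences in pairs 1 and 3 were only 0.11 and 0.04 on the log2 scale. The share of all tested genes with the same sign in every pair was not computed. With the pair as a block, 0 of 8 members were called by limma, and the adjusted p of all 8 was 0.884 or more.

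The share of the 9 genes among all collagen reads set untreated replicate 3 apart. It was 11.0%, 14.4% and 7.15% in healthy replicates 1, 2 and 3, 7.67%, 6.14% and 29.1% in the untreated replicates and 7.81%, 7.96% and 7.97% in the CLCS replicates. The Wilson 95% intervals, which cover counting error only, were 28.2% to 30.1% in untreated replicate 3 and at most 15.1% elsewhere. COL2A1 made up 5.28% of the collagen reads of untreated replicate 3 and 54.8% to 73.1% in the other 8 libraries. The CLCS libraries lay close to each other, and the healthy libraries spread across them. Type VI reads made up 56.7% to 82.6% of the reads of the 9 genes in a library, and all collagen genes together 0.925% to 2.29% of all reads.

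**Figure D4:**
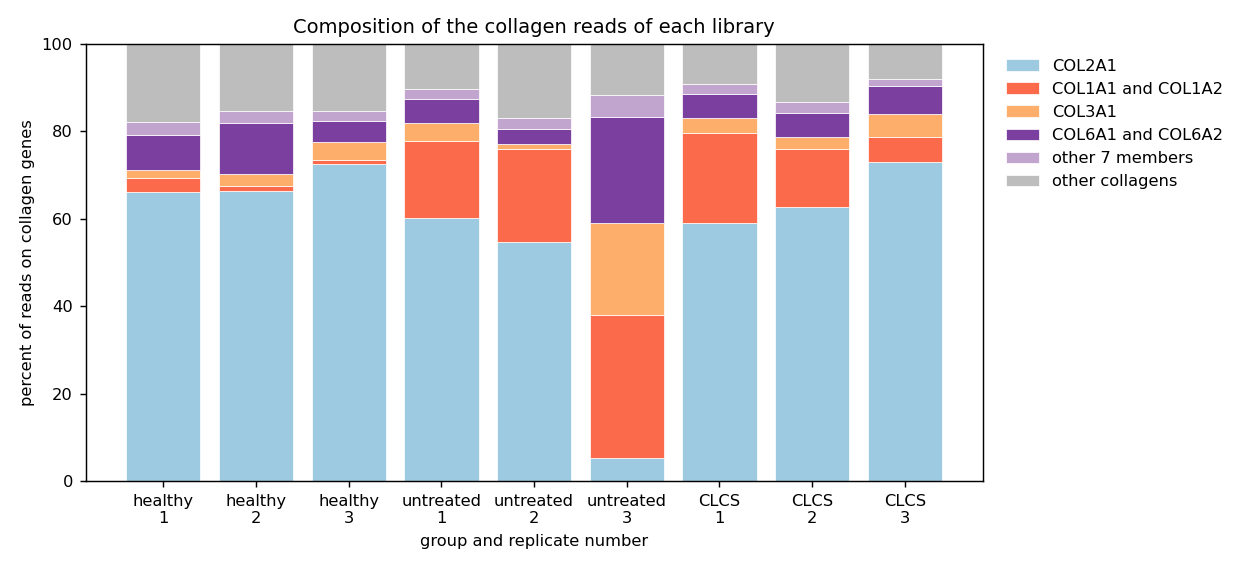
Share of the reads on 36 collagen genes (vertical axis, percent, not corrected for gene length) in each of the 9 libraries (horizontal axis, group and replicate number), stacked by COL2A1, the type I chains, COL3A1, the type VI chains, the other 7 members and the other collagens. In untreated replicate 3 COL2A1 takes 5.28% of the collagen reads, against at least 54.8% elsewhere, and the 9 members together take 29.1%.

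Among the 27 other collagen genes in the tables, 4 of 19 tested rose with both defect groups together against healthy cartilage and 0 fell. These were COL1A1 (log2 fold change 3.87, SE 0.55, adjusted p = 0.00653 from limma) and COL1A2 (3.61, SE 0.47, adjusted p = 0.0046 from limma), the chains of the type I collagen of bone and fibrous tissue, and COL4A1 (2.37, SE 0.54, adjusted p = 0.0352 from limma) and COL4A2 (1.81, SE 0.39, adjusted p = 0.027 from limma), chains of the type IV collagen of basement membranes. The median over the 19 was 0.06, beside -0.04 over all tested genes. COL22A1, at 2.24, lay between COL4A1 and COL4A2. In untreated against healthy cartilage 2 of 18 were called (COL1A1 and COL1A2), in CLCS treated against healthy cartilage 3 of 18 (COL1A1, COL1A2 and COL4A2), and in CLCS treated against untreated defects 0 of 19 by limma, edgeR or DESeq2, with 1 at an unadjusted p under 0.05.

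Genes that fold, cut, bind and partner these collagens were read against healthy cartilage in the same way. Of 9 tested genes of collagen folding and modification, 0 were called in both defect groups against healthy cartilage by limma, edgeR or DESeq2 and 0 had an unadjusted p under 0.05, with a median of -0.12. Of 7 tested genes of collagen processing and crosslinking, 1 rose and 0 fell by limma. The riser was BMP1, the protease that removes the end of fibrillar procollagens (log2 fold change 2.74, SE 0.57, adjusted p = 0.0242 from limma). EdgeR called 3, DESeq2 called 3 and 3 had an unadjusted p under 0.05. Only 2 of the 7 had a fitted change above 0. The summed level of this list was 645 to 1969 normalized reads in healthy tissue, 330 to 405 in untreated and 367 to 641 in CLCS treated libraries. By DESeq2 the paper lists BMP1 as higher and LOXL3, also on this list, as lower in both defect groups. Of 6 tested collagen receptors 0 were called by limma, edgeR or DESeq2, and 1 had an unadjusted p under 0.05. Of 9 tested binding partners of type VI and fibril-associated collagens, 1 rose and 0 fell by limma. The riser was the fibril proteoglycan LUM (lumican, log2 fold change 4.07, SE 0.70, adjusted p = 0.0118 from limma). The median was -0.25, with 4 of the 9 above 0. In that list edgeR called 2, DESeq2 called 3 and 4 had an unadjusted p under 0.05. DCN had 34 to 365 reads in healthy and 10 to 55 in defect libraries. By DESeq2 the paper lists LUM and TNC as higher and DCN as lower in both defect groups, and FMOD as lower in untreated defects. LUM had 0 to 1 read in each healthy library, so that the size of its change depends on the pseudocount.

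Some markers of fibrous tissue were also higher in defects. Of 13 such markers in the tables, 10 were tested with both defect groups together against healthy cartilage. Of these 4 rose, namely POSTN and the already mentioned LUM, COL1A1 and COL1A2. The summed level of the 13 was 1326 to 4674 normalized reads in healthy tissue, 2351 to 5956 in untreated and 3080 to 5220 in CLCS treated libraries, and the groups overlapped. Of the 10, 6 had a fitted change above 0, and edgeR and DESeq2 called 5 each. The healthy library at 4674 carried 3647 reads of FN1. Of 9 tested cartilage markers 0 rose and 1 fell, CILP (log2 fold change -2.59, SE 0.39, adjusted p = 0.00855 from limma). Of 10 endothelial markers measured, 3 were tested, and 2 rose by limma, the basement membrane chains COL4A1 and COL4A2, while edgeR and DESeq2 called 2 each. The summed endothelial level in normalized reads was 66.9 to 122 (healthy), 133 to 223 (untreated) and 145 to 239 (CLCS treated). Healthy and defect libraries did not overlap in this sum, which includes COL4A1 and COL4A2. COL4A1 had 7 to 36 reads in healthy and 37 to 138 in defect libraries, and COL4A2 7 to 14 and 25 to 64. ESAM went the other way, with 52 to 68 and 38 to 64 reads, and the defining marker PECAM1 had 0 to 4 reads per library. The sum without the type IV chains was not computed. Of 10 monocyte and macrophage markers 4 were tested and 1 rose, the receptor CSF1R (log2 fold change 1.43, SE 0.34, adjusted p = 0.0398 from limma), which edgeR and DESeq2 did not call. Their summed level was 56.0 to 62.9 normalized reads in healthy tissue, 62.0 to 153 in untreated and 61.0 to 80.7 in CLCS treated libraries, and CD163 had 0 to 1 read. The part of these cell types in the levels of the 9 genes was not tested.

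RefSeq annotates the assembly mOryCun1.1, which differs from the oryCun2.0 build of the alignments. There, 5 of the 9 genes had a neighbour that overlaps them or lies within 1000 bases. COL16A1 overlaps the non-coding gene LOC138850692, COL23A1 overlaps LOC127490563 and LOC127490564, and COL24A1 overlaps LOC138850411 and LOC127493426. COL22A1 lies next to the non-coding LOC103348142 and COL7A1 next to the protein gene UCN2. None of these neighbours is listed by symbol in the deposited tables. The strand setting of the count is not given in the sources used here, so that reads of these 5 genes and of their neighbours may not be separable. The unknown setting, like the high share of ND6, concerns all 9 genes. Which strand their counted reads came from was not tested.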

How the data were processed

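Libraries from 9 samples of rabbit cartilage were compared, grouped by their labels. Per the study's methods and the labels, the authors aligned polyA TruSeq reads to oryCun2.0 with TopHat and Bowtie, counted unique alignments per gene with eXpress and divided the counts by DESeq2 size factors. Versions, annotation release and strand setting are not given in the sources used here. The deposited signal per gene is thus a normalized read number. Whole reads were recovered from 100% of the values of each library (tolerance 0.01 reads). The healthy columns are repeated in both tables and were used once. Of 14870 genes, 11076 have a symbol.

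Differences were fitted with limma 3.58.1 (R 4.3.3) after log2 transformation with a pseudocount of 1. Genes were kept by filterByExpr of edgeR 4.0.16 on the recovered reads, and those with a Benjamini-Hochberg adjusted p under 0.05 over all of them were called. The 6 libraries of a comparison entered each fit, and 9 entered the fit of both defect groups. Alternatives were edgeR with TMM, DESeq2 1.42.0, log2 CPM with TMM and a prior count of 2, pseudocounts of 0.5 and 4, no filter, all 9 libraries, a replicate block and leaving out each library. The code was tested on simulated data.

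The members and gene lists were chosen with earlier results of these data known. All members were named, and of the collagen gene lists every called gene, of the annotation every gene within 1000 bases, and for each member the 3 genes with the highest Pearson correlation over 9 libraries. Markers of cell types were named where they bear on a member.

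Whether equal replicate numbers pair libraries was checked by the correlation across genes of their deviations from the group means. It was 0.28, 0.14 and 0.19 for CLCS and healthy, 0.25, 0.33 and 0.30 for CLCS and untreated and 0.29, 0.13 and -0.04 for untreated and healthy libraries. With all 3 over 0.1, the numbers were taken to pair the CLCS libraries with either other group. Libraries of unequal number were not correlated for comparison, so this check cannot establish that equal numbers mark the same rabbit. The main fits were made without the pairing.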

Additional observations from a re-analysis of the deposited data

How the results depend on the processing

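Of 494 values of a member under an alternative, 452 kept their direction and their side of the threshold, 35 changed sign, 6 lost a call and 1 gained one. The signs turned only for members with no call. Under edgeR the untreated difference of COL6A2 was 0.33 and that of COL16A1 in both defect groups 0.0331. Under DESeq2 these were 0.30 and 0.0357. With a pseudocount of 0.5 the difference of COL24A1 between defect groups was 0.0187.

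When 1 library was left out, values of untreated against healthy cartilage ran from -0.92 to 0.36 for COL6A1, -0.97 to 0.67 for COL6A2, -0.91 to 0.12 for COL16A1 and -0.46 to 1.02 for COL24A1. Those of CLCS treated against healthy cartilage ran from -0.41 to 0.44 for COL6A1, -0.041 to 0.50 for COL16A1 and -0.14 to 0.58 for COL24A1, and those of CLCS treated against untreated defects from -0.28 to 1.0 for COL6A1, -0.12 to 1.51 for COL6A2, -0.10 to 0.82 for COL12A1 and -0.79 to 0.68 for COL24A1. For both defect groups they ran from -0.63 to 0.22 for COL6A1, -0.22 to 0.61 for COL6A2, -0.34 to 0.20 for COL16A1 and -0.14 to 0.62 for COL24A1.

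The number of genes called in untreated against healthy cartilage was 89, and 271 with DESeq2 (1 member), 20 without a filter, 171 with all 9 libraries and 2 to 7 with 1 library left out. In CLCS treated against healthy cartilage it was 104, and 253 with DESeq2, 13 without a filter (0 members) and 0 to 81 with 1 library left out (0 to 1 members). The count of 0 came from limma without CLCS replicate 1, where 436 genes had an unadjusted p under 0.05; edgeR and DESeq2 were not run on that subset. For both defect groups it was 251, and 429 with DESeq2 and 96 to 235 with 1 library left out (0 to 1 members). The cause of these moves was not tested, except that leaving out a library or the filter changes the number of libraries or genes tested.

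With the replicate block, limma called 94 genes in untreated against healthy cartilage (0 members), 125 in CLCS treated against healthy cartilage (1 member, COL22A1, adjusted p = 0.0145), 319 in both defect groups (1 member, COL22A1, adjusted p = 0.00705) and 0 in CLCS treated against untreated defects, where 164 genes had an unadjusted p under 0.05. The block changed no call of a member. Depth limits COL7A1, COL13A1, COL22A1 and COL24A1 most, with 2 to 30 reads in each healthy library.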
